A study of Mus musculus with 20 samples.

Results

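The interferon receptors and their JAK-STAT relay were examined in the hippocampus as a set of 9 genes. These were the receptor chains Ifnar1, Ifnar2 and Ifngr1, the kinases Jak1 and Tyk2, the transcription factors Stat2 and Irf9, and the inhibitors Socs1 and Socs3. They were chosen by name from 39056 genes in the count table, and all 9 were among the 16107 genes tested. Bulk mRNA sequencing was performed on the left hippocampus of 20 female C57BL/6 mice, 5 in each of 4 groups. MiR-34a WT Non-Tg mice carried both copies of miR-34a (miR34a+/+) and no transgene, and miR-34a KO Non-Tg mice lacked miR-34a throughout the body (miR34a-/-). The Tg-SwDI mice, either miR-34a WT or miR-34a KO, also carried human APP with the Swedish, Dutch and Iowa mutations under the neuronal Thy1 promoter, a model with amyloid deposits in the hippocampus and vessels. The labels give no age and no treatment, and 1 library was made from each mouse. The comparisons asked how loss of miR-34a changed the hippocampus with and without amyloid, and how the transgene changed it with and without miR-34a.

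Type I interferons bind a receptor made of IFNAR1 and IFNAR2, which carry the kinases TYK2 and JAK1. The kinases phosphorylate STAT proteins, among them STAT2, which joins IRF9 in ISGF3, a complex that binds interferon-stimulated response elements (ISRE) and switches on interferon-stimulated genes. Interferon gamma binds IFNGR1 and IFNGR2 and acts at gamma-activated sites (GAS). SOCS1 and SOCS3 are induced by cytokines and damp the signal, SOCS1 mainly that of interferons and SOCS3 mainly that of cytokines using the gp130 receptor chain. In the brain, microglia are a main site of the interferon response, and several interferon-stimulated genes are known to rise in microglia near amyloid.

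Libraries held between 19549622 and 21066868 counts, and levels are given as CPM, counts scaled to library size with TMM factors. As a check of the labels, Thy1, which shares its promoter with the transgene, had 684 to 769 CPM in mice without the transgene. With the transgene it had 1900 to 2330 CPM in miR-34a WT and 2450 to 3320 CPM in miR-34a KO mice. Thy1 was thus higher in every KO than in every WT Tg-SwDI mouse, and its part in the results below was not tested. MiR-34a itself was not analysed here. Summed markers of the hippocampal fields lay between 746 and 927 CPM in all 20 mice. Replicate 8 of the miR-34a KO Tg-SwDI group stood apart, with 14.6% of its counts on mitochondrial genes, where the other 19 libraries had 6.94% to 8.76%. The calls of the 9 genes, their ratios and most counts of the pathway gene lists that involve this group are therefore also given without that mouse. Counts of cell type markers called are given with all 20 mice only. In whole tissue, fewer cells of a type and less RNA per cell cannot be told apart.

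The mature sequence of miR-34a-5p, the miRNA removed in the KO mice, is shown from RefSeq (GRCm38.p6, chromosome 4, 150068473 to 150068494, + strand) with its seed, bases 2 to 8, in capitals, because the seed selects the mRNAs that it can bind.
miR-34a-5p: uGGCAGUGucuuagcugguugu
Among the 9 genes, the seed's complement CACTGCC stood in the longest annotated 3′UTR of Socs3 and of no other, against 17.3% of the 14708 genes tested that have an annotated 3′UTR. The Socs3 match began at base 508 of a 1474-base 3′UTR in exon 2 of 2 (mm10, GENCODE M21, chromosome 11, 117967039 to 117967045, - strand). It is shown with 10 bases on each side and the match in capitals.
Socs3 site: taaccactccCACTGCCcaacctaggt
Socs3 did not pass the test between miR-34a KO and WT mice in either background, as described with the inhibitors.

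Loss of miR-34a in Tg-SwDI mice came with higher Ifnar2, Stat2 and Irf9. These 3 of 9 genes passed the test (edgeR quasi-likelihood, adjusted p under 0.05) and all 3 were higher, where 1.99% of all genes tested passed in either direction. The median log2 fold change of the 9 was 0.34, against 0.003 over all genes tested. In Non-Tg mice none of the 9 passed between miR-34a KO and WT, and the share over all genes was 0%. There, 1302 of 16107 genes and none of the 9 had an unadjusted p under 0.05, while DESeq2 called 7 genes and edgeR's exactTest 4, none of them among the 9. The transgene raised 5 of the 9 in miR-34a KO mice (Ifnar2, Ifngr1, Stat2, Irf9 and Socs3), where 20.8% of all genes passed, and 2 of the 9 in miR-34a WT mice (Ifngr1 and Socs3), where 4.41% passed. The test of the difference between those effects, the interaction, called 1 of the 9, Ifnar2, against 0.608% of all genes. Without replicate 8 of the KO Tg-SwDI group, 3 of the 9 passed between the Tg-SwDI groups and 5 with the transgene in miR-34a KO mice, and Ifnar1, Jak1, Tyk2 and Socs1 passed in neither. The interaction then called 3, Ifnar2, Stat2 and Irf9. Of the 16224 genes tested without that mouse, 323, 3061 and 209 passed in these comparisons, respectively. The comparisons share groups, so their calls are not independent of each other.

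**Figure D1:**
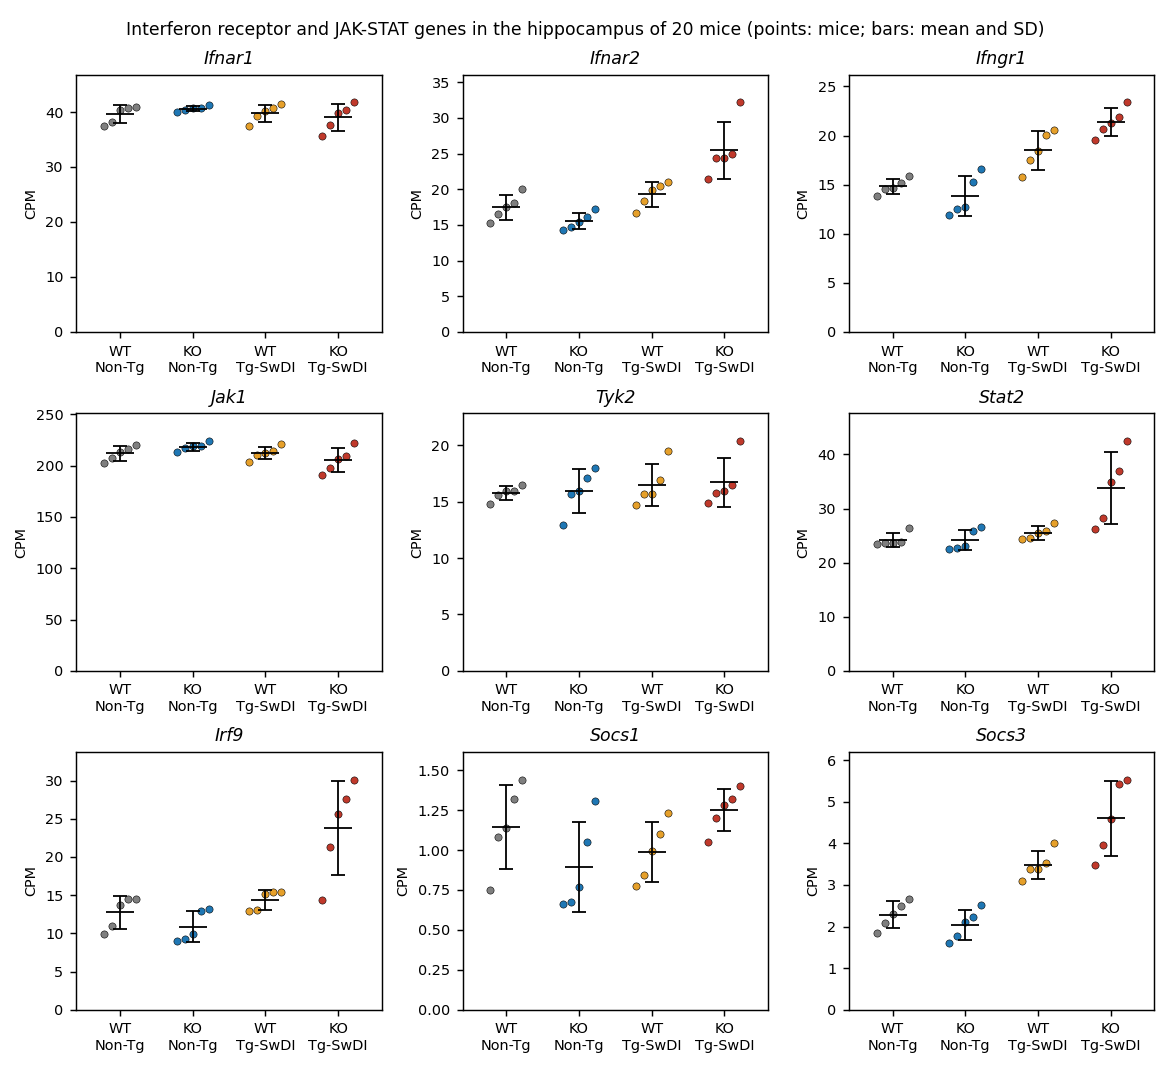
CPM (vertical axes, from 0) of the 9 genes in each of the 20 mice, by group on the horizontal axes, with bars for the mean and SD. Ifnar2, Stat2 and Irf9 were highest in miR-34a KO Tg-SwDI mice, Ifngr1 and Socs3 were higher in both Tg-SwDI groups, and the groups overlapped for Ifnar1, Jak1 and Tyk2.

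Ifnar2, the chain of the type I interferon receptor that binds interferon with high affinity, was higher in miR-34a KO than WT Tg-SwDI mice. It is ENSMUSG00000022971 (mm10, chromosome 16, 91372783 to 91405589, + strand). The 5 miR-34a KO Tg-SwDI mice had 21.4, 24.9, 24.4, 24.4 and 32.2 CPM, and the 5 miR-34a WT Tg-SwDI mice had 20.5, 18.4, 19.9, 21 and 16.6 CPM. The miR-34a WT Non-Tg mice had 17.5, 15.2, 20, 16.5 and 18.1 CPM, and the miR-34a KO Non-Tg mice 15.4, 17.2, 14.7, 14.3 and 16.1 CPM. Every miR-34a KO Tg-SwDI mouse was thus above every other mouse, and the highest value belonged to replicate 8. The order of the group means was KO Non-Tg, WT Non-Tg, WT Tg-SwDI and KO Tg-SwDI, and only the last step was free of overlap.

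Between the Tg-SwDI groups, Ifnar2 was 1.32-fold higher (log2 fold change 0.40, SE 0.09, adjusted p = 0.0250). With all 10 mice it was the only one of the 9 without overlap between these groups, where 3.16% of all genes had none. Without replicate 8 Stat2 and Irf9 did not overlap either, and the share of all genes without that mouse is not given here. The log2 fold change of Ifnar2 without replicate 8 was 0.30 (adjusted p = 0.0438). The call was lost without WT Tg-SwDI replicate 5 (adjusted p = 0.0502) or 7 (adjusted p = 0.0821), and when only the 10 mice compared were fitted (adjusted p = 0.106). A block for replicate number in the model also ended the call (log2 fold change 0.34, adjusted p = 0.295). In Non-Tg mice the estimate had the other sign, -0.17 with a 95% interval from -0.36 to 0.02 (adjusted p = 0.685).

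The transgene raised Ifnar2 in miR-34a KO mice by 0.71 on the log2 scale (SE 0.09, adjusted p = 2.08e-06), and by 0.62 without replicate 8 (adjusted p = 1.96e-06), and the call held in 29 of 29 alternatives. In miR-34a WT mice the difference was 0.14 (interval -0.05 to 0.33, adjusted p = 0.516). The interaction was 0.57 on the log2 scale (SE 0.13, adjusted p = 0.0402). Without replicate 8 it was 0.48 (adjusted p = 0.0322). Of 20 fits that left out 1 mouse, 8 kept this call, and of 8 other alternatives 5 did. It was lost with library size alone (adjusted p = 0.0514), the choroid plexus covariate (adjusted p = 0.105), the GC and length trend removed (adjusted p = 0.113) and, apart from those 28, the replicate block (adjusted p = 0.0828). The mice whose removal ended it were replicates 2, 4 and 7 of WT Non-Tg, 1, 4, 7 and 8 of KO Non-Tg, 3, 4, 5 and 7 of WT Tg-SwDI and 3 of KO Tg-SwDI, with adjusted p between 0.0519 and 0.0977.

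Ifnar1, the partner chain, gave a contrasting picture next door. It is ENSMUSG00000022967 (chromosome 16, 91485238 to 91507441, + strand), in the cluster of receptor genes that also holds Ifnar2, Il10rb and Ifngr2. Group means were 39.6 ± 1.59, 40.6 ± 0.440, 39.7 ± 1.55 and 39.0 ± 2.43 CPM (SD, n = 5) in WT Non-Tg, KO Non-Tg, WT Tg-SwDI and KO Tg-SwDI mice, and the ranges of neighbouring groups overlapped. Its log2 fold change between the Tg-SwDI groups was -0.03 with an interval from -0.13 to 0.08 (adjusted p = 0.822), and that of the transgene in miR-34a KO mice -0.06 with an interval from -0.16 to 0.04 (adjusted p = 0.438). Per kilobase of exon, Ifnar1 and Ifnar2 stood at similar mean levels over the 20 mice, 6.69 and 5.84 CPM per kb.

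The ratio of the 2 chains within a mouse needs no scaling between libraries. Ifnar2 counts were 0.569, 0.596, 0.612, 0.605 and 0.904 times the Ifnar1 counts in miR-34a KO Tg-SwDI mice, 0.424 to 0.515 times in miR-34a WT Tg-SwDI mice, 0.402 to 0.496 times in miR-34a WT Non-Tg mice and 0.347 to 0.428 times in miR-34a KO Non-Tg mice. The KO Tg-SwDI values lay above all others. The log2 ratio was 0.42 higher in miR-34a KO than WT Tg-SwDI mice (exact two-sided permutation test, n = 5 per group, p = 0.00794, adjusted over 12 ratio tests 0.0317), and 0.76 higher with the transgene in miR-34a KO mice (exact permutation p = 0.00794, adjusted 0.0317). The smallest p that 5 against 5 allows is 0.00794. Without replicate 8 these differences were 0.30 and 0.64, each with an exact permutation p of 0.0159 (adjusted 0.0476), the smallest that 4 against 5 allows. Of 20 fits that left out 1 mouse, 13 lost the call between the Tg-SwDI groups and 8 lost that for the transgene. In Non-Tg mice the ratio was 0.21 lower on the log2 scale without miR-34a, which did not pass after adjustment (-0.21, exact permutation p = 0.0317, adjusted 0.0762).

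**Figure D2:**
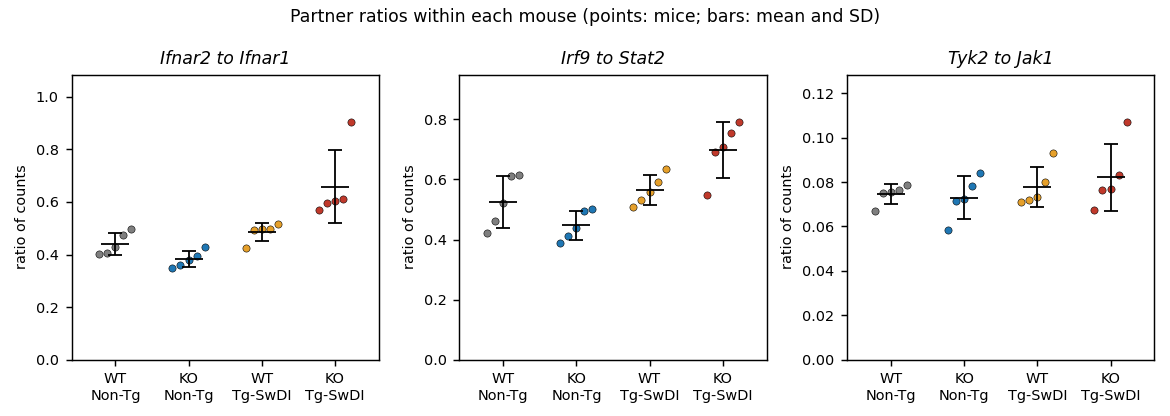
Ratio of counts (vertical axes, from 0) of Ifnar2 to Ifnar1, Irf9 to Stat2 and Tyk2 to Jak1 in each mouse by group, with bars for the mean and SD of 5 mice. The 5 miR-34a KO Tg-SwDI mice had Ifnar2 to Ifnar1 ratios from 0.569 to 0.904, above all other mice, whereas the Tyk2 to Jak1 ratios of the groups overlapped.

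Ifngr1, the ligand-binding chain of the interferon gamma receptor, followed the transgene. It is ENSMUSG00000020009 (chromosome 10, 19591949 to 19610229, + strand). Without the transgene its mean was 14.8 ± 0.761 CPM in miR-34a WT and 13.8 ± 2.04 CPM in miR-34a KO mice (SD, n = 5), and with it 18.5 ± 1.95 and 21.4 ± 1.45 CPM. The lowest KO Tg-SwDI mouse, at 19.5 CPM, was above the highest KO Non-Tg mouse, at 16.6 CPM, whereas the 2 Tg-SwDI groups overlapped. The transgene raised it by 0.63 (SE 0.09, adjusted p = 5.25e-06; 0.64 without replicate 8, adjusted p = 7.28e-06) in miR-34a KO mice and by 0.32 (SE 0.09, adjusted p = 0.0324) in miR-34a WT mice, on the log2 scale. The call in WT mice was lost without replicate 2, 3, 4 or 6 of WT Non-Tg or replicate 4, 5 or 6 of WT Tg-SwDI, with adjusted p between 0.0578 and 0.114, and with the choroid plexus covariate (0.30, adjusted p = 0.0531), library size alone (adjusted p = 0.0520) or the GC and length trend removed (adjusted p = 0.0912). Between the Tg-SwDI groups the log2 fold change was 0.21 with an interval from 0.03 to 0.39 (adjusted p = 0.183), and the interaction was 0.31 (adjusted p = 0.190).

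The other interferon receptor chains gave 2 of 3 genes that could be tested. Ifngr2, the signalling chain of the interferon gamma receptor, had group means from 75.2 to 83.1 CPM and passed in no comparison, with a log2 fold change of 0.14 for the transgene in miR-34a KO mice (adjusted p = 0.109). Il10rb, a chain shared by the receptors of interferon lambda and IL-10, was raised by the transgene in miR-34a KO mice by 0.80 on the log2 scale (SE 0.14, adjusted p = 0.000285). Between the Tg-SwDI groups Il10rb gave 0.24 (adjusted p = 0.373).

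The ligands were at or near 0. Of 20 genes for type I and III interferons, none passed the filter on low counts, 14 had no count in any mouse, and the 20 genes had 8 counts in the 20 mice together. Ifng, the gene of interferon gamma, had 9 counts in all, with at most 3 in a mouse. Differences in these ligands were not detectable at this depth.

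The receptor-bound kinases differed little between groups. Jak1 (ENSMUSG00000028530, chromosome 4, 101152367 to 101265282, - strand) had the highest level per length of the 9, 29.3 CPM per kb over the 20 mice, and group means of 212 ± 6.74, 218 ± 3.74, 212 ± 6.01 and 205 ± 11.7 CPM in WT Non-Tg, KO Non-Tg, WT Tg-SwDI and KO Tg-SwDI mice (SD, n = 5). Its log2 fold change between the Tg-SwDI groups was -0.05 with an interval from -0.14 to 0.04 (adjusted p = 0.564). With the transgene in miR-34a KO mice it was -0.09 (adjusted p = 0.132), and it passed there with library size alone (-0.13, adjusted p = 0.0464) and with the GC and length trend removed (-0.12, adjusted p = 0.0353).

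Tyk2 (ENSMUSG00000032175, chromosome 9, 21104068 to 21131243, - strand) had 2.36 CPM per kb and group means of 15.8 ± 0.642, 15.9 ± 1.94, 16.5 ± 1.86 and 16.7 ± 2.15 CPM in the same order. It passed in no comparison, and the interval of the difference between the Tg-SwDI groups ran from -0.17 to 0.21 on the log2 scale. The ratio of Tyk2 to Jak1 counts differed by 0.07 (log2) between these groups, within the spread between mice (exact permutation p = 0.619, adjusted 0.675).

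Stat2, the subunit of ISGF3 that carries its main activation domain, was higher in most miR-34a KO Tg-SwDI mice. It is ENSMUSG00000040033 (chromosome 10, 128270559 to 128292849, + strand). The miR-34a KO Tg-SwDI mice had 42.5, 28.3, 34.9, 37.0 and 26.3 CPM, the last being replicate 8. The miR-34a WT Tg-SwDI mice had 27.3, 25.9, 25.4, 24.3 and 24.5 CPM, and the 2 Non-Tg groups ranged from 23.5 to 26.5 CPM with miR-34a and from 22.5 to 26.6 CPM without it. Replicate 8 lay inside the range of the WT Tg-SwDI mice and the other 4 lay above it.

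The log2 fold change of Stat2 between the Tg-SwDI groups was 0.41 (SE 0.09, adjusted p = 0.0232), and 0.49 without replicate 8 (adjusted p = 0.00189). The call was lost without WT Tg-SwDI replicate 5 (adjusted p = 0.0529), 6 (adjusted p = 0.0510) or 7 (adjusted p = 0.0694), with library size alone (adjusted p = 0.0792) and with the 10 mice compared (adjusted p = 0.123). The replicate block also ended it (log2 fold change 0.34, adjusted p = 0.231). The transgene raised Stat2 in miR-34a KO mice by 0.49 (adjusted p = 0.000413, 29 of 29 alternatives; 0.57 without replicate 8) and gave 0.07 in miR-34a WT mice (interval -0.12 to 0.27, adjusted p = 0.787). The interaction was 0.41 (adjusted p = 0.117), and passed without replicate 8 (0.49, adjusted p = 0.0308) or replicate 2 (0.48, adjusted p = 0.0382) of the KO Tg-SwDI group.

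Irf9, the DNA-binding subunit of ISGF3, had the largest fold change of the 9 between the Tg-SwDI groups. It is ENSMUSG00000002325 (chromosome 14, 55603571 to 55610030, + strand). The miR-34a KO Tg-SwDI mice had 30.1, 21.3, 27.6, 25.6 and, in replicate 8, 14.4 CPM, and the miR-34a WT Tg-SwDI mice had 15.2, 15.4, 12.9, 15.4 and 13 CPM. The miR-34a WT Non-Tg mice had 13.7, 11, 14.5, 9.94 and 14.5 CPM, and the miR-34a KO Non-Tg mice 12.9, 13.2, 9.26, 9.97 and 8.99 CPM. Without replicate 8, the KO Tg-SwDI mice lay above all others, and with it they overlapped the WT Tg-SwDI mice.

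Irf9 was 1.66-fold higher in miR-34a KO than WT Tg-SwDI mice (log2 fold change 0.73, SE 0.16, adjusted p = 0.0267), and the log2 fold change was 0.86 without replicate 8 (adjusted p = 0.00154). The call was lost without WT Tg-SwDI replicate 3 (adjusted p = 0.0553), 5 (adjusted p = 0.0743) or 7 (adjusted p = 0.0796) and without KO Tg-SwDI replicate 3 (adjusted p = 0.0571). It was also lost with library size alone (adjusted p = 0.0590), without a filter (adjusted p = 0.0549), with the 10 mice compared (adjusted p = 0.0796) and with the replicate block (adjusted p = 0.162). The transgene raised Irf9 2.19-fold in miR-34a KO mice (log2 fold change 1.13, SE 0.17, adjusted p = 4.07e-05, 29 of 29 alternatives; 1.27 without replicate 8), with no overlap, and gave 0.17 in miR-34a WT mice (interval -0.17 to 0.52, adjusted p = 0.701). The interaction was 0.96 (SE 0.23, adjusted p = 0.0594). It passed without replicate 8 (1.10, adjusted p = 0.00975) or 2 (1.01, adjusted p = 0.0334) of KO Tg-SwDI, replicate 3 (adjusted p = 0.0497) or 6 (adjusted p = 0.0396) of WT Non-Tg, and replicate 2 of KO Non-Tg (adjusted p = 0.0478). It also passed by DESeq2 (adjusted p = 0.00288), by the likelihood ratio test (adjusted p = 0.011) and at a mean CPM of at least 1 (adjusted p = 0.0495).

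The ratio of Irf9 to Stat2 counts was higher with the transgene in miR-34a KO mice. It was 0.709, 0.753, 0.791, 0.692 and 0.548 in KO Tg-SwDI mice, the last in replicate 8, and 0.508 to 0.635 in WT Tg-SwDI mice. The log2 ratio rose by 0.64 with the transgene in miR-34a KO mice, without overlap (exact permutation p = 0.00794, adjusted 0.0317). Between the Tg-SwDI groups it differed by 0.30 and did not pass after adjustment (exact permutation p = 0.0317, adjusted 0.0762). Without replicate 8 these differences were 0.73 and 0.39, and both passed (exact permutation p = 0.0159 each, adjusted 0.0476). With 1 mouse left out, the call for the transgene in miR-34a KO mice was lost in 8 of 20 fits.

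**Figure D3:**
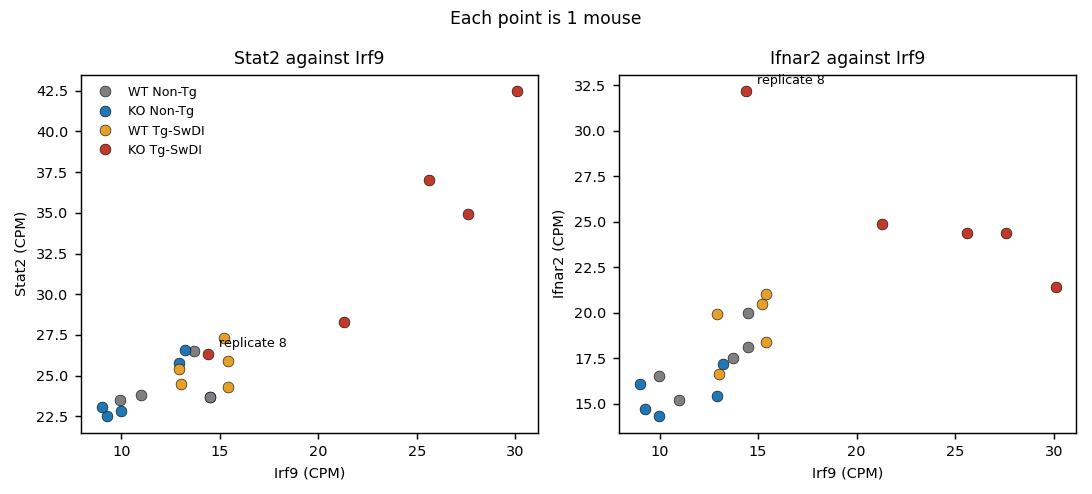
Stat2 (left) and Ifnar2 (right) against Irf9, all in CPM on linear axes that do not start at 0, with 1 point per mouse coloured by group. Stat2 was high where Irf9 was high among the miR-34a KO Tg-SwDI mice, whereas replicate 8 of that group had the highest Ifnar2, 32.2 CPM, and the lowest Irf9, 14.4 CPM.

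Over the 20 mice, Pearson's r of log2 CPM was 0.91 for Stat2 with Irf9 and 0.79 after the group means were removed (0.91 and 0.66 without replicate 8). For Ifnar2 with Irf9 it was 0.70, and -0.19 after the group means were removed. Without replicate 8 these became 0.87 and 0.38, so the sign of the latter rested on that mouse. These are descriptions over libraries that share depth, scaling and group differences.

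Among all genes tested, those whose log2 CPM was most like Irf9 over the 20 mice were Ifih1 (r = 0.974), Rtp4 (0.967) and Ifit3b (0.967), and those most like Stat2 were Irf9 (0.911), Ifit3b (0.905) and Rtp4 (0.903). For Ifnar2 they were Tmem189 (0.954), Fxyd1 (0.947) and Arhgdib (0.940), for Ifngr1 Glipr2 (0.939), Gsn (0.929) and Sparc (0.927), and for Socs3 Pycard (0.967), Ptgs1 (0.953) and Capg (0.952). Those most like Jak1 were Synrg (0.903) and Luzp1 (0.894), those most like Ifnar1 were Usp1 (0.837), Cacul1 (0.831) and Parp1 (0.831), and those most like Tyk2 were Ssh3 (0.856), Metap1d (0.835) and Cd2ap (0.789). Socs1, the lowest of the 9, had the weakest likeness after its first gene, with Art3 (0.809), Mvd (0.708) and Mcm2 (0.707). Without replicate 8 the values of Ifnar1 fell the most, to 0.791, 0.772 and 0.734.

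The inhibitors were the lowest of the 9 per length. Socs1 (ENSMUSG00000038037, chromosome 16, 10782240 to 10785536, - strand) had 0.368 CPM per kb and 14 to 29 counts in each mouse. Its group means were 1.15 ± 0.264, 0.892 ± 0.279, 0.987 ± 0.185 and 1.25 ± 0.136 CPM in WT Non-Tg, KO Non-Tg, WT Tg-SwDI and KO Tg-SwDI mice (SD, n = 5), and neighbouring groups overlapped. It passed in no comparison, with a log2 fold change of 0.34 between the Tg-SwDI groups (interval -0.09 to 0.78, adjusted p = 0.394) and 0.49 for the transgene in miR-34a KO mice (adjusted p = 0.111). The latter passed without KO Non-Tg replicate 8 (0.66, adjusted p = 0.0431).

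Socs3 (ENSMUSG00000053113, chromosome 11, 117966079 to 117970047, - strand) was raised by the transgene with and without miR-34a. It had 2.50, 2.08, 2.30, 1.85 and 2.67 CPM in WT Non-Tg mice and 3.38, 4.02, 3.53, 3.09 and 3.39 CPM in WT Tg-SwDI mice. It had 2.10, 1.61, 2.22, 1.77 and 2.51 CPM in KO Non-Tg mice and 5.44, 5.53, 4.59, 3.48 and 3.96 CPM in KO Tg-SwDI mice. Every Tg-SwDI mouse was above every Non-Tg mouse, and the 2 Tg-SwDI groups overlapped.

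The transgene raised Socs3 by 1.17 (SE 0.15, adjusted p = 1.55e-06, 29 of 29 alternatives; 1.22 without replicate 8) in miR-34a KO mice and by 0.61 (SE 0.15, adjusted p = 0.0134) in miR-34a WT mice, on the log2 scale. It was the only one of the 9 without overlap between miR-34a WT mice with and without the transgene, where 6.69% of all genes had none. In miR-34a KO mice 4 of the 9 had no overlap (Ifnar2, Ifngr1, Irf9 and Socs3), where 12.8% of all genes had none. The call in WT mice was lost without WT Non-Tg replicate 6 (adjusted p = 0.0574) or WT Tg-SwDI replicate 4 (adjusted p = 0.0518). Between the Tg-SwDI groups Socs3 gave 0.40 (interval 0.11 to 0.69, adjusted p = 0.121), in Non-Tg mice -0.16 (interval -0.49 to 0.17, adjusted p = 0.869), and the interaction was 0.56 (adjusted p = 0.175).

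**Figure D4:**
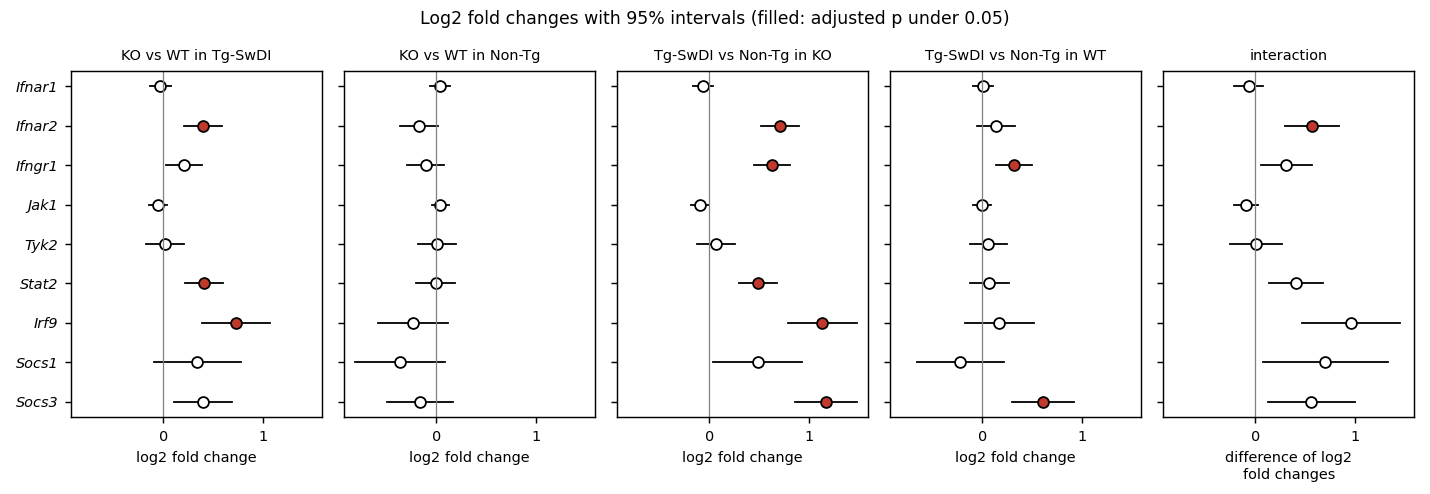
Log2 fold changes of the 9 genes (horizontal axes) in the 4 pairwise comparisons, and the difference of log2 fold changes in the interaction, with 95% intervals; filled points had an adjusted p under 0.05. The transgene in miR-34a KO mice has 5 filled points, miR-34a KO against WT has 3 in Tg-SwDI mice and none in Non-Tg mice.

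Promoter windows of Stat2, Ifnar2, Socs3 and Socs1 are shown because each holds a match to the ISRE core or the GAS motif upstream of the start site. They are from RefSeq (GRCm38.p6), 250 bases before to 50 bases after the start site. Both strands were searched for the ISRE core GAAANNGAA, found in 8.56% of 32851 windows, and for the GAS motif TTCNNNGAA, found in 8.3%. Matches stand in capitals on the gene's strand.
Stat2, chr10:128270248-128270547, + strand: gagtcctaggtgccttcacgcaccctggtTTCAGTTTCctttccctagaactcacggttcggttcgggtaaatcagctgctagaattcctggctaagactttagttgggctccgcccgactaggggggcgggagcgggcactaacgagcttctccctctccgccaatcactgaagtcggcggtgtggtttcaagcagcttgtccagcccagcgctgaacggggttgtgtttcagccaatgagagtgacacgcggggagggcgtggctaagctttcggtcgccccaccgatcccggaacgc
Ifnar2, chr16:91372533-91372832, + strand: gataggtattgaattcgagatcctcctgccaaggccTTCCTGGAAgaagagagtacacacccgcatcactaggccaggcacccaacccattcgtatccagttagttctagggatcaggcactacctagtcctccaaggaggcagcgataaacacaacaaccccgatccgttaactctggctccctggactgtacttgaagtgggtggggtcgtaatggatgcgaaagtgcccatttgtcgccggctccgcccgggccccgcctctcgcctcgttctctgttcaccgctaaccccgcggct
Socs3, chr11:117969317-117969616, - strand: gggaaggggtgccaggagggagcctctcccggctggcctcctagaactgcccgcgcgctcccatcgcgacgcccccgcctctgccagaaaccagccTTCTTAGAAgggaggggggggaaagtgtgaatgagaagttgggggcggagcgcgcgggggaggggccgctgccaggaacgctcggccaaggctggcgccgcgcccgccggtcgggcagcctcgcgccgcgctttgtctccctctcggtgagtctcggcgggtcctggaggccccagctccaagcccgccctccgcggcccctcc
Socs1, chr16:10785487-10785786, - strand: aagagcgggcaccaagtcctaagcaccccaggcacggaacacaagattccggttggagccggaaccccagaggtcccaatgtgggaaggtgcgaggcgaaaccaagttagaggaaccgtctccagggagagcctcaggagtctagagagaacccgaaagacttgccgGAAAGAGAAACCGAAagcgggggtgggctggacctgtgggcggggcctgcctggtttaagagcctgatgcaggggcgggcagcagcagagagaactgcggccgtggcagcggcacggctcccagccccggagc
Stat2 held an ISRE core on the opposite strand, read as GAAACTGAA, from -221 to -213. Ifnar2 held a GAS motif from -214 to -206 and Socs3 one from -154 to -146. Socs1 held ISRE cores from -83 to -75 and from -77 to -69, which overlap. Ifnar1 held a GAS motif that spans the start site, from -5 to 4. The windows of Ifngr1, Jak1 and Tyk2 and both windows of Irf9 held none, which says only that these letters are not in those windows. The start sites are those of RefSeq, whereas the gene positions given above are those of GENCODE. The Socs3 window and both Irf9 windows lie inside those gene positions, not upstream of them.

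As over all genes, more genes around the 9 passed with the transgene in miR-34a KO than WT mice. The list of gp130 cytokine and receptor genes was the exception, with 4 in each. Of 7 other JAK and STAT genes tested, none passed between the Tg-SwDI groups, 5 were higher with the transgene in miR-34a KO mice and 2 in miR-34a WT mice, where 1.99%, 20.8% and 4.41% of all genes passed. Without replicate 8 the counts were 1, 5 and 3, with 1 in the interaction, where 323, 3061, 957 and 209 of 16224 genes passed. DESeq2 called 1 between the Tg-SwDI groups, where it called 733 of 16107 genes. Stat3, which carries signals of gp130 cytokines, rose by 0.48 (adjusted p = 2.26e-07) in miR-34a KO and by 0.31 (adjusted p = 0.000300) in miR-34a WT mice, on the log2 scale. Jak2, a kinase of the interferon gamma receptor, gave -0.06 with the transgene in miR-34a KO mice (adjusted p = 0.458) and -0.06 between the Tg-SwDI groups (adjusted p = 0.604).

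Of 15 other inhibitors, none passed between the Tg-SwDI groups, where 1.99% of all genes did. Without replicate 8 Ptpn6 and Usp18 passed, where 323 of 16224 genes did. With the transgene in miR-34a KO mice 3 of the 15 rose and 2 fell, where 20.8% of all genes passed. Without replicate 8, 2 rose (Ptpn6 and Usp18) and 2 fell, Socs7 no longer among them, where 3061 of 16224 genes passed. Ptpn6, a phosphatase of blood and microglial cells, rose by 2.30 (adjusted p = 3.13e-11) and Usp18, which is induced by interferon and blocks IFNAR2, by 2.10 (SE 0.47, adjusted p = 0.00423), while Socs5 fell by 0.20 (adjusted p = 0.00836) and Socs7 by 0.15 (adjusted p = 0.0362) on the log2 scale. Ptpn6 also rose in miR-34a WT mice, by 1.55 (adjusted p = 6.04e-08). Usp18 gave 1.31 between the Tg-SwDI groups (SE 0.44, adjusted p = 0.122).

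Downstream, 7 of 19 ISRE target genes tested were higher in miR-34a KO than WT Tg-SwDI mice and none lower, the median log2 fold change being 1.27, where 1.99% of all genes passed. Without replicate 8 the count was 16, with library size alone it was 3, with the 10 mice compared 1, and by DESeq2 15. Over all genes these fits called 323 of 16224, 217 of 16107, 58 of 15684 and 733 of 16107. Mx1, an antiviral GTPase, rose by 1.77 (SE 0.36, adjusted p = 0.0135), Oasl2 by 1.66 (SE 0.37, adjusted p = 0.0323), the RNA sensor Ifih1 by 0.66 (SE 0.16, adjusted p = 0.0315) and Ifit2 by 0.56 (SE 0.11, adjusted p = 0.0113) on the log2 scale. The transgene raised 18 of the 19 in miR-34a KO mice, where 20.8% of all genes passed, among them Mx1 by 2.91 (adjusted p = 1.05e-05). Without replicate 8 it raised 19, where 3061 of 16224 genes passed. None of the 19 passed in miR-34a WT mice, where 4.41% of all genes did. Summed over the list, the levels were 101 (replicate 8) to 288 CPM in miR-34a KO and 98.9 to 120 CPM in miR-34a WT mice with the transgene, and 67.3 to 117 and 71.8 to 117 CPM without it.

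None of 12 interferon gamma (GAS) target genes passed between the Tg-SwDI groups, where 1.99% of all genes did, the median log2 fold change being 0.62. Without replicate 8, 4 passed, where 323 of 16224 genes did. The transgene raised 10 of the 12 in miR-34a KO mice and 3 in miR-34a WT mice, against 20.8% and 4.41% of all genes. These counts of GAS targets were the same without replicate 8, where 3061 and 957 of 16224 genes passed. With all 20 mice, Irf8, a transcription factor of microglia and macrophages, rose by 2.31 (adjusted p = 2.07e-09) in miR-34a KO and by 1.65 (adjusted p = 6.18e-07) in miR-34a WT mice. Of 8 gp130 cytokine and receptor genes tested, 4 rose with the transgene in miR-34a KO mice and 4 in miR-34a WT mice, against 20.8% and 4.41% of all genes. Without replicate 8, 5 rose in miR-34a KO mice, where 3061 of 16224 genes passed. None of the 8 passed between the Tg-SwDI groups. Osmr, the oncostatin M receptor, rose by 1.49 (adjusted p = 5.15e-09) and 1.30 (adjusted p = 1.60e-07), and its ligand gene Osm by 2.37 (adjusted p = 0.000190) and 2.39 (adjusted p = 0.000478), in miR-34a KO and WT mice.

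**Figure D5:**
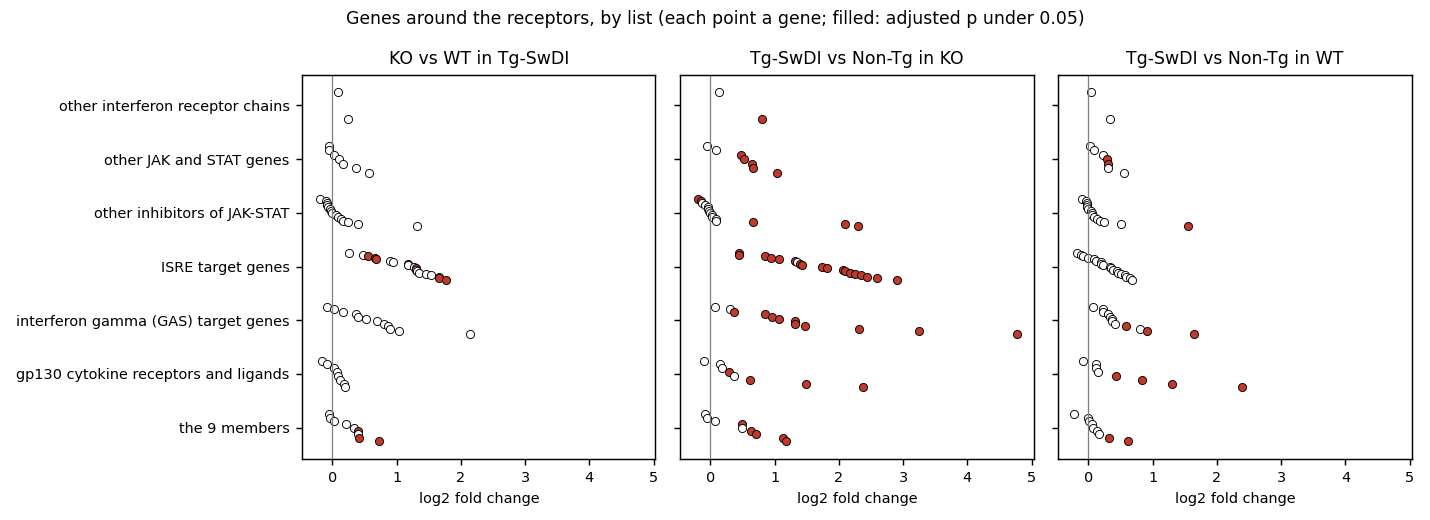
Log2 fold changes (horizontal axes) of the genes tested in 6 lists around the receptors and of the 9 genes, each point a gene, filled where the adjusted p was under 0.05, for miR-34a KO against WT in Tg-SwDI mice and for the transgene in miR-34a KO and in WT mice. ISRE targets have 7, 18 and 0 filled points, respectively.

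Microglial markers rose with the transgene, and several astrocyte markers did too, as given under other observations. The 9 microglial markers, P2ry12 and Tmem119 among them, summed to 658 to 926 CPM in miR-34a KO and 600 to 712 CPM in miR-34a WT mice with the transgene, and to 303 to 316 and 304 to 364 CPM without it. All 9 were higher with the transgene in both miR-34a KO and WT mice, where 20.8% and 4.41% of all genes passed. In miR-34a KO against WT Tg-SwDI mice 2 of the 9 were higher, where 1.99% of all genes passed. Replicate 8 of KO Tg-SwDI, with the highest Ifnar2, had the lowest microglial sum of its group, 658 CPM. The 6 markers of plaque-associated microglia summed to 395 to 558 CPM in miR-34a KO Tg-SwDI and 328 to 375 in WT Tg-SwDI mice, and 3 of the 6 were higher without miR-34a. No marker of either list was without counts, and their part in the changes of the 9 genes was not tested. Choroid plexus markers ranged from 131 to 3940 CPM in miR-34a KO Tg-SwDI and from 66.0 to 355 in KO Non-Tg mice, and with their score as a covariate the 5 calls for the transgene in miR-34a KO mice held, whereas the Ifnar2 interaction and Ifngr1 in miR-34a WT mice no longer passed.

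Some genes share their place with others, and how reads that match more than 1 gene were counted is not given in the sources used here. Ifnar2 overlaps Gm21970 on the same strand, which was at 0 counts in all 20 mice, Jak1 overlaps Gm12785, with at most 1 count in a mouse, and Irf9 overlaps the end of Rnf31. Rnf31, a ubiquitin ligase subunit, had group means from 23.4 to 26.7 CPM and did not pass between the Tg-SwDI groups (log2 fold change 0.19, adjusted p = 0.110), although these groups did not overlap. On the opposite strand, Raver2 overlaps Jak1 and 1700084C06Rik overlaps Tyk2, and whether strand was used in counting is not given in the sources used here. The counts of Ifnar2, Jak1, Tyk2 and Irf9 are therefore uncertain by the reads in those overlaps.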

How the data were processed

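Stranded mRNA libraries of 20 hippocampi were sequenced on DNBSEQ. Per the labels and methods, the authors aligned reads to mm10 with STAR and deposited raw read counts per ENSEMBL gene from featureCounts (versions and strand setting not given in the sources used here), 1 column per mouse. Groups and replicate numbers came from the labels. No library was a duplicate of another. Of 39056 gene IDs, 99.5% matched GENCODE M21.

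Genes were filtered with filterByExpr (minimum count 10, minimum total 15), leaving 16107, scaled with TMM factors and tested with edgeR 4.0.16 (robust quasi-likelihood, 4 group means, 20 mice, 16 residual degrees of freedom) in R 4.3.3, with Benjamini-Hochberg adjustment over all genes tested and calls at 0.05. Intervals are 95% and unadjusted. P-values measure the spread between mice. Ratios were tested with exact permutation tests (scipy 1.17.1). DESeq2 1.42.0, other scalings, filters and covariates, a replicate block and leaving out each mouse were alternatives.

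The 9 genes, the gene and marker lists and the ratios were chosen with earlier results of these data known. Genes named from lists were, in each comparison, at most the 4 called with the lowest adjusted p, plus Ifngr2, Jak2 and Usp18. For each of the 9 genes, the 3 with the highest Pearson's r were named. Some genes that these rules would name are not reported here.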

Additional observations from a re-analysis of the deposited data

Results flagged for a closer look

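In miR-34a KO Tg-SwDI mice, replicate 1 had the highest Tyk2 level, 20.4 CPM, set apart from the other 4 mice by more than Dixon's test allows for 5 samples (gap 0.721 of the range, critical value 0.71). In miR-34a WT Non-Tg mice, replicate 2 had the highest Stat2 level, 26.5 CPM, with a gap of 0.893 of the range. Of 36 groups of 5 values, chance flags about 1 in 20. The Ifnar2 interaction, the difference between the transgene's effects with and without miR-34a, was 0.57 on the log2 scale (edgeR quasi-likelihood, adjusted p = 0.0402). This call held in 8 of 20 fits that left out 1 mouse and in 5 of 8 other alternatives. It was also lost with the replicate block.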

How the results depend on the processing

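Depth limits Socs1, with 14 to 29 counts per mouse, and the ligands. Of 1341 repeats of single-gene results, 1256 kept direction and call, 46 lost the call, 13 gained it and 26 changed the sign of a value near 0. The cause was not tested. Most of these results were not called in the main fit, so their repeats could not lose a call. Of the 9 genes, 3 were called between the Tg-SwDI groups, but 1 with library size alone and 0 with the 10 mice compared (fewer mice in the fit). For the transgene in miR-34a WT mice the count fell from 2 to 1 with library size alone, the choroid plexus covariate or the GC and length trend removed. The interaction went from 1 to 2 by DESeq2, by the likelihood ratio test or at a mean CPM of at least 1, and to 0 with library size alone, the choroid plexus covariate or the trend removed. Without 1 mouse, these counts ranged from 0 to 3, 0 to 2 and 0 to 3. The count of ISRE targets without replicate 8 of KO Tg-SwDI, 16 against 7 between the Tg-SwDI groups, and the ratios, correlations and other list counts without that mouse were added after seeing the data.

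Same-numbered mice of different groups did not deviate together over all genes tested (2 of 16 pairs over 0.1, median r -0.0395). The labels do not say what the numbers stand for, and this check cannot exclude a shared litter or batch. With the replicate block 0 of the 9 were called between the Tg-SwDI groups and 0 in the interaction, Tyk2 became -0.03 and -0.01 for miR-34a KO in Tg-SwDI and Non-Tg mice and -0.02 in the interaction, and it changed no other call among the 9.

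Over all genes, 320 were called between the Tg-SwDI groups, 733 by DESeq2, 573 with the covariate, 151 with the trend removed, 58 with the 10 mice, 8 with the block and 78 (without WT Tg-SwDI replicate 7) to 701 (without KO Tg-SwDI replicate 2). In Non-Tg mice 0 became 7 by DESeq2, 4 by exactTest, 1 with the 10 mice or without a filter and up to 3 without 1 mouse. The interaction had 98, and 482 by DESeq2, 263 by the likelihood ratio test, 59 with library size alone, 38 with the block, 32 with the covariate, 24 with the trend removed and 14 (without KO Non-Tg replicate 7) to 510 (without KO Tg-SwDI replicate 2). For the transgene in KO mice 2013 were higher and 1338 lower, and 1255 in all were called with the covariate. The split was 1487 to 3175 with the trend removed and 1674 to 1795 with library size alone. Between the Tg-SwDI groups it was 239 to 81, and 102 to 115 with library size alone.

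Log2 values near 0 changed sign as follows. Tyk2 in miR-34a KO against WT Tg-SwDI mice was -0.02 with library size alone and -0.04 with the trend removed, the transgene in KO mice -0.01 with the trend removed, and the interaction -0.03 with library size alone, -0.03 with the covariate and -0.07 with the trend removed. Ifnar1 for the transgene in WT mice was -0.04 with the trend removed. Without 1 mouse, Ifnar1 ranged from -0.04 to 0.01 in KO against WT Tg-SwDI and from -0.01 to 0.03 for the transgene in WT mice, and Tyk2 from -0.06 to 0.09 and -0.03 to 0.08 for KO in Tg-SwDI and Non-Tg mice, -0.01 to 0.12 for the transgene in KO mice and -0.07 to 0.07 in the interaction.

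Without 1 mouse, the smallest exact p rises from 0.00794 to 0.0159, and ratio calls pass after adjustment only where several tests reach it. The log2 ratio of Ifnar2 to Ifnar1 ranged from 0.30 to 0.47 and from -0.25 to -0.16 for KO against WT in Tg-SwDI and Non-Tg mice, and from 0.64 to 0.81 for the transgene in KO mice. Irf9 to Stat2 ranged from 0.25 to 0.39 and 0.59 to 0.73 for KO in Tg-SwDI mice and the transgene in KO mice, and Tyk2 to Jak1 from -0.03 to 0.14, -0.09 to 0.04 and -0.01 to 0.09 for KO in Tg-SwDI mice, KO in Non-Tg mice and the transgene in WT mice.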

Other observations

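Markers of other cell types gave the following values beside these results. The 6 astrocyte markers summed to 5370 to 6850 CPM in miR-34a KO Tg-SwDI mice and 5070 to 5970 in WT Tg-SwDI mice. Of the 6, 1 was higher without miR-34a, where 1.99% of all genes passed. Without the transgene they summed to 4150 to 4430 CPM in miR-34a KO and 3960 to 4240 CPM in miR-34a WT mice. The transgene raised 3 of the 6 in miR-34a KO and 4 in miR-34a WT mice, where 20.8% and 4.41% of all genes passed. Border macrophage markers, Mrc1 and Cd163 among them, had 0 of 6 called between the Tg-SwDI groups by edgeR, and their median log2 fold change was 0.52. None of the 6 markers of T and NK cells passed the filter on low counts, and their sum was 0.869 to 1.47 CPM in miR-34a KO Tg-SwDI and 0.425 to 1.45 CPM in WT Tg-SwDI mice.

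Neuronal markers summed to 4840 to 5510 CPM in miR-34a KO Tg-SwDI and 5080 to 5450 CPM in WT Tg-SwDI mice. Oligodendrocyte, endothelial, mural, blood, striatal, thalamic, hippocampal field, choroid plexus and immediate early gene lists had 0 genes called by edgeR in the same contrast, with median log2 fold changes of 0.01, 0.13, 0.13, 0.26, 0.13, 0.05, -0.04, -0.21 and 0.52.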
